A study of Mus musculus with 10 samples.

Results

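Cells take up iron, use it in heme and iron-sulphur clusters, store the surplus inside ferritin and release the rest through a single known exporter. Transferrin carries iron in the extracellular fluid, the transferrin receptor brings the loaded carrier into the cell, and ferritin shells made of heavy and light chains hold iron in a form that does not generate radicals. When iron is scarce, the iron regulatory proteins bind hairpins known as iron responsive elements, which blocks translation of messages that carry the hairpin in the 5′ untranslated region (UTR) and stabilises messages that carry it in the 3′ UTR. In the nervous system, oligodendrocytes are known as iron-rich cells and as a source of transferrin.

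The 9 genes described here are the ferritin chains Fth1 and Ftl1, the carrier Trf, the receptor Tfrc, the importer Slc11a2, the exporter Slc40a1, the ferroxidase Heph and the iron sensors Aco1 and Ireb2. They were picked by symbol for their role in iron storage and transport, and all 9 were found among the 25232 genes of the deposited table. The table came from RNA-sequencing of spinal cord from 10 female mice at 90 days of age, labelled C57BL/6, 5 wild type (WT) and 5 SOD1 G93A. According to the study's methods the tissue was the lumbar part of the cord, and the SOD1 G93A mice carried many copies of a human SOD1 transgene with an ALS mutation, and the WT mice were their littermates. The colony was kept on a C57BL/6J background. For each gene the table gives the authors' base mean, which is the normalised read count averaged over all 10 libraries, both genotypes together. It gives no value for a single mouse, and the columns with the authors' own comparison of the genotypes were not used, so the question the study asked of the genotypes is not addressed by the values below.

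No spread between mice can be given for the same reason. The intervals below are 95% intervals for counting error alone, taken from the size of 1 read in the table. The 10 lowest values above 0 ran from 0.0868 to 0.119 normalised reads, and all 412 of the 412 next values were sums of 2 of them within 5e-06, so each of the 10 was read as the worth of 1 read in 1 library. On that reading the largest library was 1.37 times the smallest, and the libraries were put in no group. The count of 3 reads that serves as a floor corresponds to a base mean of 0.301. All 9 iron genes lay far above it. Differences smaller than the unknown spread between mice cannot be judged from such intervals.

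Markers of neurons and glia differed widely in level. Base means ran from 3498 to 59050 for neurons, 16064 to 56290 for astrocytes and 5348 to 319615 for oligodendrocytes. The oligodendrocyte precursor markers Pdgfra and Cspg4 had 1338 and 755. The myelin gene Mbp held the first place of the table by base mean, with 319615 normalised reads. Neuronal Snap25 and astrocytic Gfap were also among the top 10, while the motor neuron markers Chat, Slc18a3 and Isl1 had base means of 735, 1170 and 45.6. Microglial markers lay between 480 and 1278, and markers of skeletal muscle, choroid plexus, sensory ganglion and liver were lower but above 0. The skeletal muscle genes Acta1, Myh4 and Ckm had 251, 203 and 108, the choroid plexus genes Kl and Ttr 123 and 37.7, the sensory ganglion genes Scn10a and Avil 86.9 and 71.7, and the liver genes Alb and Apoa1 46.8 and 22.9. Their part in the levels below was not tested. In whole tissue, fewer cells of a type and less RNA per cell cannot be told apart.

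The hairpin sequences are shown first, because they are what links storage, uptake and export genes as messages. The transcripts of the 9 genes in the GENCODE M21 annotation of GRCm38 were searched on the sense strand for the loop letters CAGTGN with a C 5 bases before them. Capitals mark that C and the 6 loop letters. The bases on either side of the loop were then compared, and a site was said to have a full stem when all 5 positions could pair as A-T, G-C or G-T. That last condition was added after the sequences had been seen. Ftl1, Fth1 and Slc40a1 each had 1 full stem in the 5′ UTR. Its marked C was base 84 of the principal transcript of Ftl1, base 664 of that of Fth1 and base 96 of that of Slc40a1.
Ftl1 5′ UTR, chr7:45459779-45459807, minus strand: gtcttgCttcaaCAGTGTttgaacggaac
Fth1 5′ UTR, chr19:9982732-9982760, plus strand: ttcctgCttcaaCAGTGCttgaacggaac
Slc40a1 5′ UTR, chr1:45925465-45925493, minus strand: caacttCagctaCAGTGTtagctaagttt

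Tfrc carried 4 full stems in its 3′ UTR, all on the plus strand of chromosome 16. The first lay 379 bases before the second, and the third and the fourth followed after a further 65 and 47 bases, start to start.
Tfrc 3′ UTR, chr16:32631219-32631247: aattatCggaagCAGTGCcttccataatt
Tfrc 3′ UTR, chr16:32631598-32631626: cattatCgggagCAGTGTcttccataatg
Tfrc 3′ UTR, chr16:32631663-32631691: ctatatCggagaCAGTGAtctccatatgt
Tfrc 3′ UTR, chr16:32631710-32631738: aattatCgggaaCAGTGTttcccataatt

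The importer Slc11a2 had no full stem under this condition, which leaves out any site with a mismatch among the 5 positions. One match in the 3′ UTR of an annotated transcript other than the principal one paired at 4 of 5 positions. Whether that match forms a hairpin was not tested.
Slc11a2 3′ UTR, chr15:100395153-100395181, minus strand: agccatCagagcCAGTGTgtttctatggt

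The loop letters alone were common. Of 20597 genes with an annotated 5′ UTR, 2506 (12.2%) held them there, and of 20979 genes with a 3′ UTR, 7534 (35.9%) did. A full stem was found in the 5′ UTR of 31 genes (0.151%) and in the 3′ UTR of 129 genes (0.615%). Among the 9 iron genes the full stem was present in 3 in the 5′ UTR and in 1 in the 3′ UTR. The condition was set after sequences had been seen, and the shares over all genes include these genes, so the contrast is no test. Matches in Trf, Heph, Aco1 and Ireb2, in coding sequence or UTR, paired at 1 to 4 of the 5 positions. Those in Trf and Aco1 lay in coding sequence only, as did the Heph match with 4 pairs. In the UTRs, Heph had a 5′ match with 3 pairs, and Ireb2 had 3′ matches with 2 and 1. Promoter windows from RefSeq on GRCm38.p6 were given for 5 of the 9 genes, and 1 of their 7 windows (14.3%) held the loop letters on either strand, against 6442 of 32851 windows (19.6%) in all. These matches are letters in the reference sequence, and no binding was measured.

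The ferritin heavy chain and transferrin dominated the set. Fth1 had a base mean of 108067 normalised reads and held the third place among all 25232 genes. Trf followed with 49822 and the 14th place. The 9 genes together held 0.774% of all normalised reads, and Fth1 and Trf made up 92.1% of that. To compare genes with each other, base means were divided by the length of all annotated exons of the gene and are given per kb. On that scale the order was Fth1, Trf, Ftl1, Tfrc, Aco1, Slc11a2, Ireb2, Heph and Slc40a1, from 31152 to 37.5 normalised reads per kb.

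**Figure D1:**
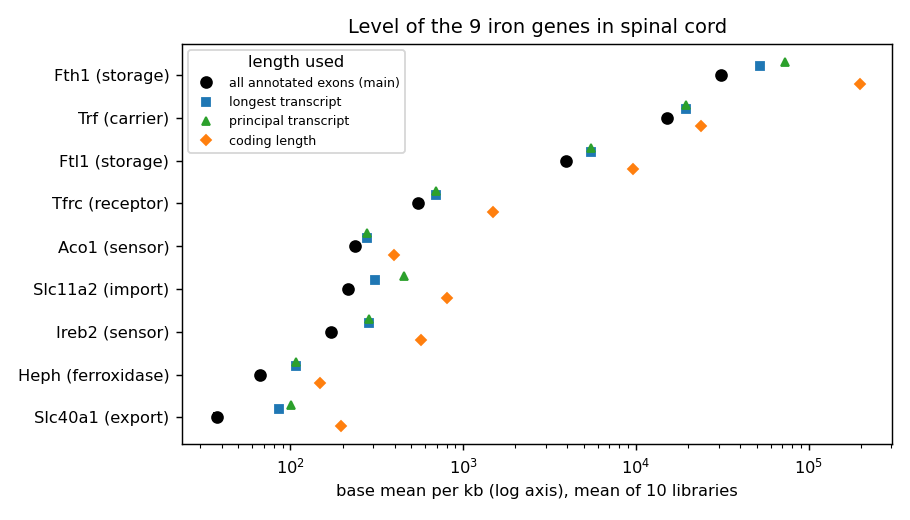
Level of each of the 9 iron genes as base mean per kb on a log axis, averaged over 10 libraries, with black circles for the length of all annotated exons and bars for the 95% counting error (narrower than the circle for most genes), and other symbols for 3 other lengths. Fth1, Trf, Ftl1 and Tfrc hold the first 4 places under every length, while Aco1, Slc11a2 and Ireb2 trade places, and Heph and Slc40a1 do so with the coding length.

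Fth1, the ferritin chain with ferroxidase activity, lies at chr19:9980598-9985098 on the plus strand, and its principal transcript has 5 exons and codes for 182 residues. Its level was 31152 per kb, with a counting interval from 31093 to 31211, the third highest of 20360 genes above 0 that had a length. Ftl1, the light chain that favours formation of the iron core, lies at chr7:45457944-45459884 on the minus strand, with 4 exons and 183 residues. It had a base mean of 5286, the 705th of the table, and a level of 3945 per kb with an interval from 3911 to 3979. Both ferritin chains stood in the top 1% of genes by level per kb, at percentiles 99.99 for Fth1 and 99.4 for Ftl1.

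The level of Fth1 per kb was 7.90 times that of Ftl1, with a counting interval from 7.83 to 7.97. With the principal transcript as length the ratio was 13.2, and with the coding length it was 20.6. Adding the other 7 rows whose symbols begin with Fth or Ftl left it at 7.90. Of those rows, 6 were listed at 0, and the highest, Fthl17a, had 0.0868, which is the value of 1 read in the largest library. All 7 begin with Fth, so nothing was added to Ftl1 and the ratio could hardly change.

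The authors counted only reads that mapped to a single place, and the 2 ferritin chains share sequence with other places in the genome to different extents. Windows of 100 bases were taken along the principal transcript of each gene and searched on both strands of all transcripts of other genes, a check chosen after the levels had been seen. For Ftl1, 527 of 869 windows (60.6%) were also present, letter for letter, in a gene elsewhere in the genome. Most of these were shared with Ftl1-ps1 on chromosome 13, which held 515 of the 869 windows (59.3%), and Ftl2-ps on chromosome 4 held 207. Genes that overlap Ftl1 at its own locus, Gm10252 and Gm22133, held 267 of the 869 (30.7%). Fth1 shared only 8 of 1395 windows (0.573%), all with Gm6977 on chromosome X. The other 7 genes shared no window with a gene elsewhere. Of the 4 genes elsewhere that share windows with Ftl1, the antisense gene Gm47428 lies within the span of Ftl1-ps1. None of the 4 was a row of the table, so the value of Ftl1 is uncertain. The part of shared sequence in the ratio of Fth1 to Ftl1 was not tested.

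**Figure D2:**
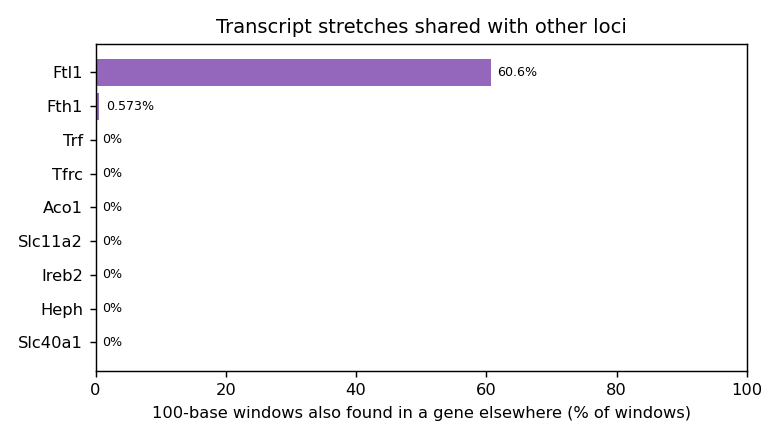
Share of the 100-base windows of each gene's principal transcript that are also found, with identical letters, in a gene at another place in the genome, in percent of the gene's windows. Ftl1 stands at 60.6% and Fth1 at 0.573%, and the bars of the other 7 genes are at 0.

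Trf encodes transferrin, the main iron carrier of plasma and of cerebrospinal fluid. The gene lies at chr9:103204001-103230444 on the minus strand, and its principal transcript has 17 exons and codes for 697 residues. Its level of 15007 per kb was the 7th highest of the genes with a length, with an interval from 14965 to 15048. In the same annotation the gene Gm20425 overlaps Trf and holds 1912 of its 2472 windows (77.3%). Gm20425 was not a row of the table.

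Tfrc, the receptor that takes up iron-loaded transferrin, lies at chr16:32608920-32632794 on the plus strand and has 19 exons. It had a base mean of 3398 and a level of 549 per kb, with an interval from 543 to 555, at percentile 90.4. The level of the carrier was thus 27.3 times that of its receptor per kb, with an interval from 27.0 to 27.6. With the coding length the ratio was 16.1. Trf and Tfrc were on opposite sides of Ftl1, which was 7.18 times higher than Tfrc and was exceeded 3.80 times by Trf.

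The importer was higher than the exporter. Slc11a2, the divalent metal transporter that moves iron out of endosomes, lies at chr15:100387898-100425072 on the minus strand and had a base mean of 1365, or 215 per kb with an interval from 211 to 219. Slc40a1, which encodes ferroportin, the known iron exporter of mammalian cells, lies at chr1:45908068-45926523 on the minus strand. It had the lowest level of the 9 genes with all exons as length, with a base mean of 337 and 37.5 per kb, but with the coding length it had 197 per kb and Heph had 147. Its interval from 36.2 to 38.7 was the widest relative to the value, at 3.38% on either side. The ratio of Slc40a1 to Slc11a2 was 0.174, with an interval from 0.168 to 0.181, and it stayed between 0.222 and 0.278 under the 3 other lengths. Slc40a1 stood at percentile 41.9 and Slc11a2 at percentile 74.9.

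Heph encodes hephaestin, a membrane copper enzyme that oxidises iron as it leaves the cell. It lies at chrX:96455359-96574485 on the plus strand, has 22 exons in its principal transcript, and had a base mean of 511 and a level of 66.8 per kb, at percentile 50.9. Cp, the related ferroxidase ceruloplasmin, had 62.8 per kb. Their ratio was 1.06, with an interval from 1.02 to 1.10, but it turned to 0.820 with the longest transcript as length, 0.781 with the coding length and 0.724 with the principal transcript. No order of the 2 ferroxidases can be given from these values.

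The iron sensors lay close together. Aco1, the cytosolic aconitase that turns into an iron regulatory protein when it loses its iron-sulphur cluster, lies at chr4:40143081-40198338 on the plus strand, with a base mean of 1065. Ireb2, the second iron regulatory protein, which is degraded when iron is plentiful, lies at chr9:54863789-54912530 on the plus strand, with a base mean of 1637. Their levels per kb were 237, with an interval from 232 to 241, for Aco1 and 173, with an interval from 170 to 175, for Ireb2. The ratio of Ireb2 to Aco1 was 0.729 with all exons, 1.02 with the longest or the principal transcript and 1.42 with the coding length. Which sensor was higher thus depended on the length taken, as Ireb2 has 9479 bases of annotated exon and a principal transcript of 5770 bases.

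Neighbours in the order of levels per kb differed by more than their counting error in all 8 pairs. The closest pair was Aco1 and Slc11a2, at a ratio of 1.10 with an interval from 1.07 to 1.13, and the next was Slc11a2 and Ireb2, at 1.24. These intervals contain no spread between mice, and the order of Aco1, Slc11a2 and Ireb2 changed under each of the 3 other lengths. The steps from Fth1 to Trf (2.08), Ftl1 to Tfrc (7.18) and Ireb2 to Heph (2.59) were wider.

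**Figure D3:**
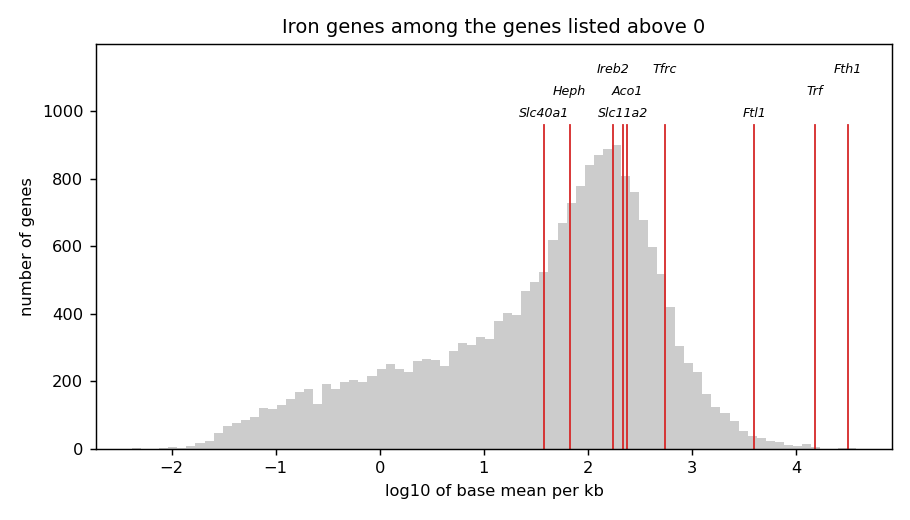
Number of genes (vertical axis) by log10 of base mean per kb (horizontal axis) for the 20360 genes above 0 that have a length, with a red line for each of the 9 iron genes. Fth1, Trf and Ftl1 lie in the far right tail, and Heph and Slc40a1 lie near the middle, at percentiles 50.9 and 41.9.

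Other genes of iron handling were taken from 6 lists by role. Of 51 such genes in the table, 44 (86.3%) had a base mean of at least 10, as had all 9 of the main set and 15918 of all 25232 genes (63.1%). Their median level was 106 per kb, against 237 for the 9 genes and 63.5 for all genes above 0 with a length. The 52nd gene, Hfe2, was not listed under that symbol.

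Among genes of iron uptake and reduction, 11 of 13 reached a base mean of 10. The lipoprotein receptor Lrp1, which also clears heme bound to hemopexin, had 1085 per kb, the lysosomal channel Mcoln1 had 185 and the metalloreductase Steap2 had 168. Its relatives Steap4 and Steap1 had 4.15 and 2.66 per kb, and melanotransferrin Meltf had 1.67. On the same scale Tfrc stood at 549 and Trf at 15007.

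In the list of ferroxidases and exporters, 4 of 5 reached the minimum. The heme transporter Slc48a1 was highest at 1962 per kb, the heme exporter Flvcr1 had 109 and its relative Flvcr2 had 21.2. With all exons as length, ferroportin at 37.5 lay between the latter pair. Under the other lengths ferroportin had 85.9 to 197 per kb, and the Flvcr genes were not recomputed. Hephl1, a further relative of Heph, had 0.511 per kb.

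Storage and its turnover had 4 of 5 genes above the minimum. The iron chaperones Pcbp1 and Pcbp2, which deliver iron to ferritin, had 1619 and 1030 per kb, and Ncoa4, the receptor that takes ferritin to the lysosome, had 136. The kinase Nuak2 had 13.6. Mitochondrial ferritin Ftmt was listed at 0. All 4 genes above 0 lay below Ftl1.

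Of the listed genes of systemic control, 6 of 8 reached the minimum, and their median level was 29.6 per kb. Hamp, which encodes the hormone hepcidin that removes ferroportin from the membrane, had a base mean of only 0.563, close to the floor of 3 reads. Erfe and Tmprss6, both known as regulators of hepcidin, had base means of 6.26 and 15.0. Neo1, a co-receptor of the pathway that also guides axons, had 368 per kb, while Hfe and Bmp6 had 61.2 and 61.1.

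All 3 sensing genes reached the minimum, with 893 per kb for the hypoxia factor Epas1, 399 for Hif1a and 179 for Fbxl5, the ubiquitin ligase subunit that marks Ireb2 for degradation. Fbxl5 and its target were close with all exons as length, at 179 and 173. Under the other lengths Ireb2 had 284 to 567 per kb, and Fbxl5 was not recomputed. In the list of mitochondrial iron and heme, 16 of 17 genes reached the minimum. The cluster assembly genes Iscu and Isca1 had 935 and 296 per kb, and heme oxygenase Hmox2 had 905. At the lower end stood haptoglobin (Hp) with 8.09 and hemopexin (Hpx) with 5.31.

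**Figure D4:**
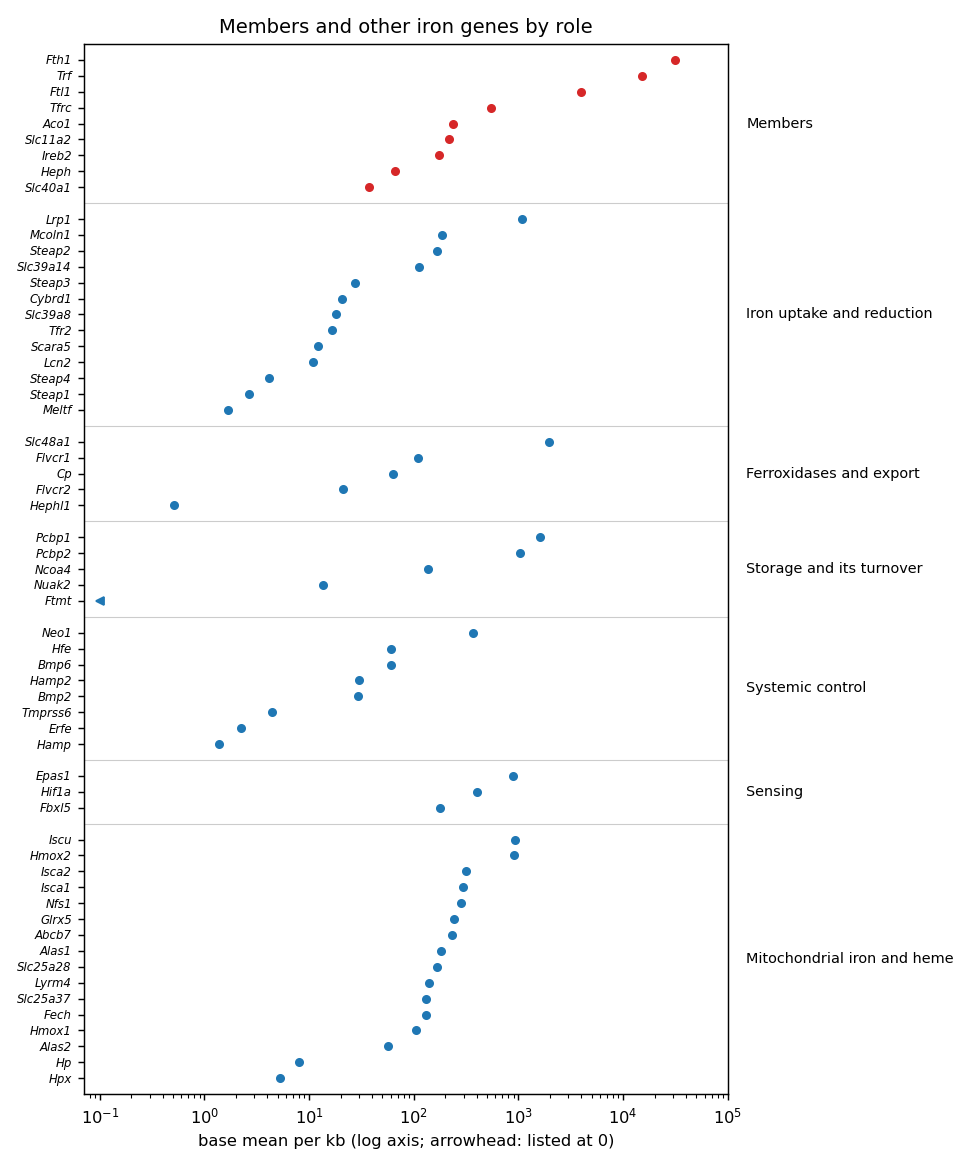
Base mean per kb on a log axis, averaged over 10 libraries, for the 9 iron genes (red) and 50 genes of 6 other iron lists (blue), 1 line per gene, with an arrowhead for Ftmt, which was listed at 0. Fth1, Trf and Ftl1 stand above every blue point, and the highest of those is Slc48a1 at 1962.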

How the data were processed

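The study's methods and the submitters' processing notes give poly-A selected stranded libraries, read filtering with Fastp, alignment to mm10 with HISAT2 2.1.0, counting of uniquely mapped reads with featureCounts 2.0.2, and DESeq2. The gene annotation used for counting is not given in the sources used here. The deposited table holds a normalised signal, the authors' base mean over 10 libraries. The other 5 columns hold the authors' comparison of the genotypes (fold change, its error, the Wald statistic and p-values) and were not used, so no test between groups was run. The sum of all base means was 22158933. Total reads per library are unknown.

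Base means were divided by the union of exons in GENCODE M21 (GRCm38), which matched 24312 of the 25232 symbols (96.4%), with Python 3.11.15, numpy 2.4.6 and pandas 2.3.3. Percentiles are over genes above 0 with a length. Counting intervals used the mean of the 1-read values and cover counting error only. The intervals were run on counts simulated with the same means and 1-read values, which cannot test whether they hold for the real libraries. In each list of other iron genes the 3 highest and 3 lowest by base mean and any at 0 were named, except 1 gene that is not reported here. The 9 genes and all lists were chosen with earlier results of these data known. Principal transcripts, full stems and shared windows were added after values were seen. The principal transcript was the coding transcript with the best principal rank in the annotation, and the longest of these where several tied.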

Additional observations from a re-analysis of the deposited data

How the results depend on the processing

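The median level of the 9 genes, 237 per kb, was 309 with the longest transcript as length, 801 with the coding length (3 times the protein length) and 451 with the principal transcript. Each of the 27 single levels so recomputed rose beyond its counting interval, by 1.17 to 6.35 times. All annotated exons together cannot be shorter than any of these lengths, so the direction was fixed in advance. The median percentile, 76.9, was 69.9 among genes at a base mean of at least 10, 80.7 among all genes with a length and 83.8 with no division by length. With the longest transcript, the coding length and the principal transcript in that order, the ratio Fth1 to Ftl1 was 9.60, 20.6 and 13.2, Trf to Tfrc was 27.9, 16.1 and 27.9, and Slc40a1 to Slc11a2 was 0.278, 0.246 and 0.222, all on the same side of 1 as before. Ireb2 to Aco1 turned from 0.729 to 1.02, 1.42 and 1.02, and Heph to Cp from 1.06 to 0.820, 0.781 and 0.724. In both, the lengths alone differ between the settings. The number of other iron genes at or above the minimum was 44, and 49, 34 and 45 with a minimum of 1, a minimum of 100 and synonyms (Hfe2 as Hjv, base mean 21.3). The share over all genes was 63.1% at a minimum of 10 and was not computed at 1 or 100. Without those shares, the counts at 1 and 100 are no result about iron genes. The median base mean of all genes was 97.3. Equal libraries left the median counting error at 1.53% on either side. No paired analysis was possible because the table gives 1 pooled value a gene. No library could be left out for the same reason, and identity between the protein sequences was not run.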

Other observations

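The 31 genes with a full stem in the 5′ UTR held, beside Ftl1, Fth1 and Slc40a1, also Alas2, the first enzyme of heme synthesis in red blood cells, with a base mean of 137. Ftl1-ps1, the copy of Ftl1 on chromosome 13, was also one of them. Alas2 was the only 1 of the 52 other iron genes with such a stem in the 5′ UTR, and 0 of the 52 had one in the 3′ UTR. The full-stem condition leaves out sites with a mismatch, so these counts do not show that the other genes lack an iron responsive element. Ftl1-ps1 was named after its match was seen.

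Of 10 globin rows, 9 were listed at 0, among them Hbb-bs and Hba-a1, and Hbb-y had a base mean of 0.430, while Alas2 had 137. Of 85 rows picked by a symbol pattern for ribosomal proteins, 2 were also listed at 0, as were 4259 of all 25232 genes. The cause of these zeros was not tested.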
